A study of Mus musculus with 10 samples.

Results

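Proteasome genes were taken as all probe sets whose platform gene symbol begins with Psma, Psmb, Psmc, Psmd, Psme or Psmg, which gave 82 of the 22690 probe sets on the array. Of these, 81 carried 1 symbol and covered 47 genes, and 1 was annotated both to Psme2 and to its near-copy Psme2b. Each gene was read from its probe set with the highest mean, and all 47 passed the filter on dim signals, among 7474 genes tested. They comprise 3 immune catalytic subunits, 3 standard catalytic subunits, 4 structural beta subunits, 8 alpha subunits, 6 ATPases and 11 other subunits of the regulatory particle, 7 assembly chaperones, and the activators Psme1, Psme3 and Psme4. Psmc3ip, a meiotic recombination factor, and Psme3ip1, which binds the activator PA28 gamma, were taken by the rule because of their symbols and are not subunits.

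RNA was measured on 10 arrays, 1 per condition, in bone marrow-derived dendritic cells of CD14-deficient mice and of wild-type mice, both labelled C57BL/6 and 6-8 weeks old. CD14 is the co-receptor that hands LPS, the endotoxin of Gram-negative bacteria, to TLR4, and thapsigargin inhibits the pump that loads calcium into the endoplasmic reticulum, so that calcium builds up in the cytosol. In each genotype, 2 cultures received LPS at 1 µg/ml with 50 nM thapsigargin for 48 or 60 h, 2 received LPS alone for 48 or 60 h, and 1 was left unstimulated and harvested at 24 h. All cells were grown with supernatant of tumour cells that secrete GM-CSF and, per the labels, were used when most were CD11c positive. No condition was repeated, no array had thapsigargin without LPS, and the unstimulated cells also spent less time in culture. The series set out to find apoptosis genes that depend on NFAT, a transcription factor switched on by calcium.

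The proteasome is the barrel-shaped protease that degrades ubiquitin-tagged proteins, with alpha rings at its ends, catalytic beta subunits inside, and a regulatory particle that binds and unfolds substrates. In cells exposed to interferon the standard catalytic subunits Psmb5, Psmb6 and Psmb7 are exchanged for Psmb8, Psmb9 and Psmb10, which gives the immunoproteasome, and the activator PA28, made of Psme1 and Psme2, can take the place of the regulatory particle. Dendritic cells are known to hold much immunoproteasome, which cuts peptides that the transporter Tap1 carries to MHC class I molecules.

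Promoter windows from RefSeq (build GRCm38.p6, 250 bases before to 50 after the gene start) were found for 40 of 48 symbols, in 44 windows. The windows of 3 immune members and of 2 standard catalytic subunits are shown because the immune and the standard genes are the pair contrasted here. These 5 were picked. Psmb10 and Psme2 also had windows, with none of the motifs below, and Psmb7 had no entry. Capitals mark a match, and the first base of each window is position 1.
Psmb8 (chr17:34197945-34198244, plus strand): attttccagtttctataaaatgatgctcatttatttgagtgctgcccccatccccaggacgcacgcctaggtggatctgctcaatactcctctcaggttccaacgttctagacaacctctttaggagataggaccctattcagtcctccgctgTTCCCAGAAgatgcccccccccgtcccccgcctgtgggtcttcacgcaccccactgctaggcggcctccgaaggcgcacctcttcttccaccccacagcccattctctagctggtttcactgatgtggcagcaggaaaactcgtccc
Psmb9 (chr17:34187281-34187580, minus strand): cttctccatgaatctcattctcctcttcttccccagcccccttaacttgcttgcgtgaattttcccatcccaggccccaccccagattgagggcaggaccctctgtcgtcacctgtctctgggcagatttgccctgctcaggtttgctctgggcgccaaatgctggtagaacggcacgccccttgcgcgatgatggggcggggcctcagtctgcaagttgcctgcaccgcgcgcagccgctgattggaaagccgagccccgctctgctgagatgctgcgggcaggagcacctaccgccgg
Psme1 (chr14:55578244-55578543, plus strand): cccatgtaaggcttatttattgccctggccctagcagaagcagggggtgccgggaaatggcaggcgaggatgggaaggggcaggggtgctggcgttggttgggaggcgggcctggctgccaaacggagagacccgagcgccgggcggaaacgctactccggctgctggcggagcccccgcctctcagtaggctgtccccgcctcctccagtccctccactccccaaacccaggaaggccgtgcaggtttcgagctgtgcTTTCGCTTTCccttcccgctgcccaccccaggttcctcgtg
Psmb5 (chr14:54617946-54618245, minus strand): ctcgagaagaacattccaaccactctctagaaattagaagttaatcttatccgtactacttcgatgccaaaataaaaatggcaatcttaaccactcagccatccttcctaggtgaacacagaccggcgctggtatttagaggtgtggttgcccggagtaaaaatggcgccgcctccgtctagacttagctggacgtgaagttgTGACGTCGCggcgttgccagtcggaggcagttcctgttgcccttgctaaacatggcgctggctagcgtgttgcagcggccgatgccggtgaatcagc
Psmb6 (chr11:70525107-70525406, plus strand): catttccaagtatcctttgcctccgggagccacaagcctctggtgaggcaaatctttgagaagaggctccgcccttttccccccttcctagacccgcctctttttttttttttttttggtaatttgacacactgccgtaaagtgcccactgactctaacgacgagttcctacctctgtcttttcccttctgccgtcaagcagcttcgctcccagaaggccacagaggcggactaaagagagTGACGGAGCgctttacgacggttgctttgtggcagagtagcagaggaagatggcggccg
In Psmb8 the capitals mark the letters TTCNNNGAA of the gamma-activated site at positions 154 to 162. In Psme1 they mark the interferon-stimulated response element, taken as GAAA, any 2 bases and GAAA again, on the minus strand at positions 260 to 269, just past the start. In Psmb5 and Psmb6 they mark TGACNNNGC, the core of the antioxidant response element, at positions 204 to 212 and 242 to 250. On both strands of all 32851 windows, TTCNNNGAA was present in 8.3%, the interferon-stimulated response element in 3.44% and TGACNNNGC in 12.4%. Among the 44 windows of proteasome genes, TTCNNNGAA was in 3 (Psmb8, Psmd2, Psmg1), the interferon-stimulated response element in 5 (Psmb3, Psmd4, Psmd9, Psme1, Psmg4) and TGACNNNGC in 6 (Psmb5, Psmb6, Psmc6, Psmd12, Psmd9, Psme4). A kappaB-like site, taken as GGGA, any 2 bases and TTCC, matched 1.47% of all windows and only Psme4 among these genes. The Psmb9 window held none of these letters. It runs head to head with that of Tap1 (chr17:34187306-34187605, plus strand), and the windows share 275 bases.

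The labels were borne out for Cd14, whose scaled signal lay between 1.85 and 7.35 on the 5 CD14-deficient arrays, under the floor of 13.4, and between 1499 and 17729 on the wild-type arrays. Of 14 dendritic cell markers, the class II gene H2-Aa was between 10029 and 16250 and Cd74 between 10915 and 15345 on all arrays. Others were not steady and did not share a direction. Itgax, which encodes CD11c, read 7838 on the CD14-deficient and 7440 on the wild-type unstimulated array, 6941 on the 60 h LPS array of CD14-deficient cells, and 750 to 2921 on the other 7. Cd209a read at most 33.1 on the stimulated arrays, against 501 and 167 on the CD14-deficient and wild-type unstimulated ones, and Clec10a at most 93.1, against 1086 and 706. Cd86 and Ccr7 went the other way. Cd86 read 3078 to 10990 on the stimulated arrays, against 1305 and 1155 on the CD14-deficient and wild-type unstimulated ones. Ccr7 read 3531 to 16168, against 2667 and 3414. A pair of arrays stood apart. In CD14-deficient cells the 48 h LPS array had the lowest cRNA yield (15.0 µg), and its 3 control probe sets for 18S rRNA read 114 to 385. They read 217 to 685 on the 60 h LPS array of wild-type cells, which had 19.0 µg of cRNA, against 1426 to 12656 on the other 8 arrays. That 48 h array also had the lowest summed macrophage marker signal, 10693, against 32571 at 60 h, and the highest Flt3, 1149, and Ms4a1, 341. In CD14-deficient LPS cells 12 of 47 proteasome genes were more than 1.5-fold apart between 48 and 60 h, where 37.9% of all genes were, against 4 under LPS in wild-type cells (22.5%). With thapsigargin this was so for 1 in CD14-deficient cells (11.8%) and 0 in wild-type cells (8.79%). In bulk RNA, fewer cells of a type and less RNA per cell cannot be told apart.

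As a set the proteasome genes varied less between arrays than all genes tested, without matching for brightness. The ratio of the highest to the lowest of the 10 arrays had a median of 1.77 over the 47 genes, against 2.4 over all genes tested, and stayed under 2-fold in 27 of 47 (57.4%), against 32.9% of all genes. All genes tested include any that were above the filter's cut on only 2 arrays. Whether signal level accounts for the gap was not tested. The ratio was 1.18 for Psma1 and Psma5, which form part of the alpha ring. For the structural subunit Psmb4 it was 1.33 on the brightest probe set and 3.05 on the other one above the filter. It was 3.70 for the assembly chaperone Psmg1 and 4.07 for Psmc3ip, the largest of the 47. Among the catalytic subunits it was 2.57 for Psmb9, 2.41 for Psmb7 and 2.19 for Psmb6, against 1.68 for Psmb8, 1.61 for Psmb10 and 1.40 for Psmb5.

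**Figure D1:**
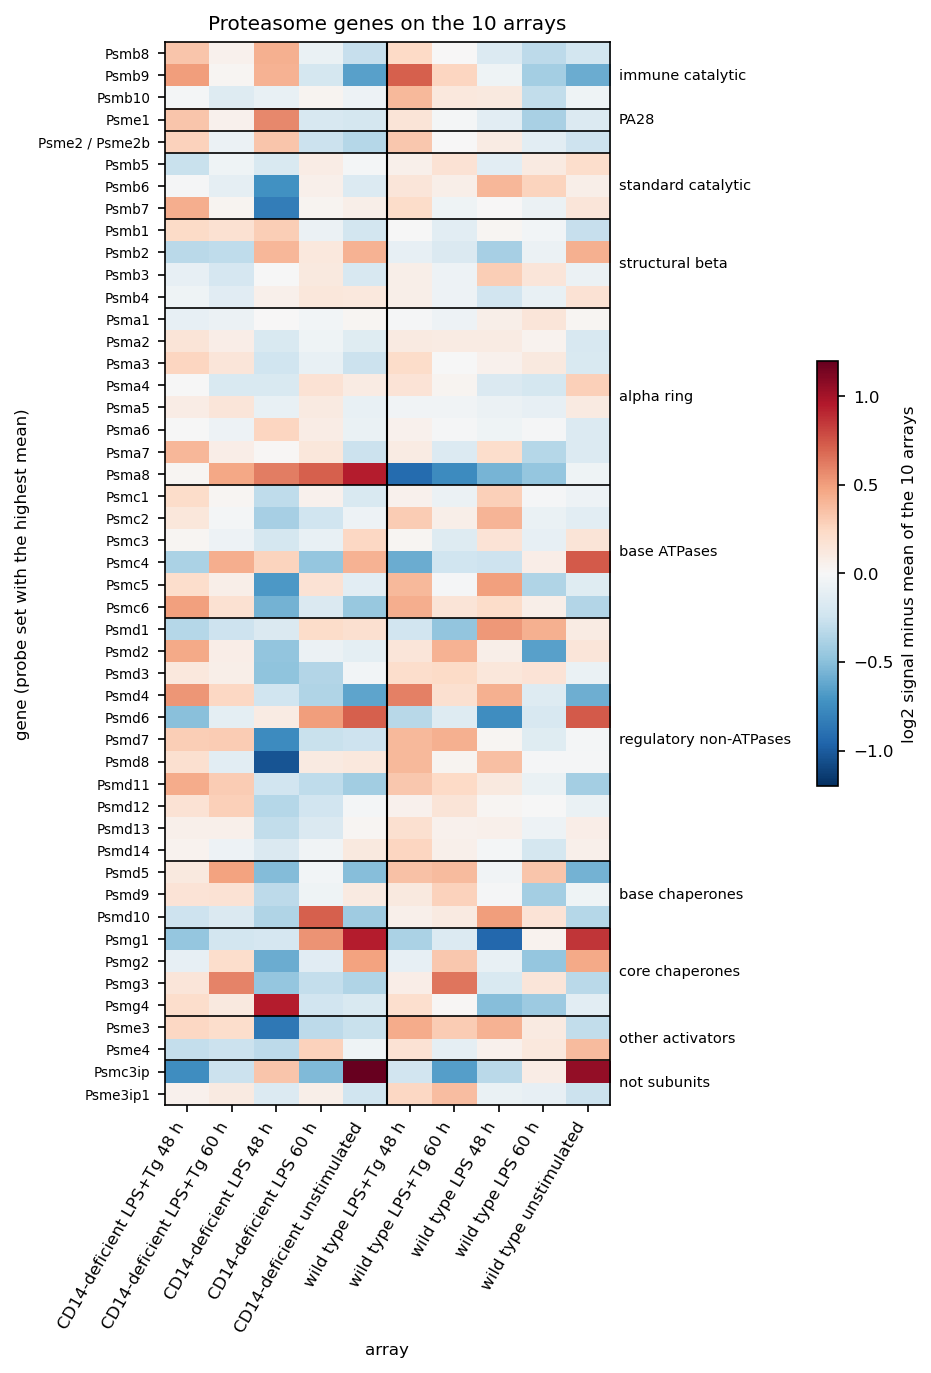
Scaled log2 signal of 47 proteasome genes and of the probe set shared by Psme2 and Psme2b, each minus its mean over the 10 arrays (colour, clipped at 1.2 either way), with genes in rows by role and arrays in columns, CD14-deficient left of the line and wild type right of it. Most rows are pale; Psmb9 is lowest on both unstimulated arrays, Psma8 is higher on each CD14-deficient array than on any wild-type array, and Psmb6, Psmb7 and Psmd8 are lowest on the CD14-deficient LPS array at 48 h.

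Among the immune catalytic subunits Psmb9 varied most. Its scaled signal in CD14-deficient cells was 5524 and 3958 with LPS and thapsigargin at 48 and 60 h, 5191 and 3365 with LPS at 48 and 60 h, and 2485 unstimulated. In wild-type cells it was 6390 and 4660 with LPS and thapsigargin, 3752 and 2932 with LPS, and 2581 unstimulated. All 8 stimulated arrays were above both unstimulated arrays, and in each of the 4 stimulated conditions the 60 h value was below the 48 h value.

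Psmb8, which replaces Psmb5, read 6983 and 5736 in CD14-deficient cells with LPS and thapsigargin, 7474 and 5257 with LPS, and 4596 unstimulated. The wild-type arrays read 6569 and 5569 with LPS and thapsigargin, 4965 and 4453 with LPS, and 4755 unstimulated. The wild-type LPS arrays thus lay on either side of the unstimulated one, while the other 6 stimulated arrays were above it. Psme1, the alpha subunit of PA28, read 5952 and 4879 in CD14-deficient cells with LPS and thapsigargin, 7034 and 4121 with LPS, and 4078 unstimulated. Wild-type cells had 5242 and 4638 with LPS and thapsigargin, 4322 and 3614 with LPS, and 4224 unstimulated. Its highest value, as for Psmb8, was on the CD14-deficient LPS array at 48 h.

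Psmb10, which replaces Psmb7, was flatter. It read 1942 and 1775 in CD14-deficient cells with LPS and thapsigargin, 1859 and 2017 with LPS, and 1893 unstimulated. The wild-type signals were 2586 and 2147 with LPS and thapsigargin, 2138 and 1611 with LPS, and 1897 unstimulated. The probe set shared by Psme2, the beta subunit of PA28, and Psme2b cannot tell these genes apart and entered the fit only as an alternative added after the data were seen. It ran from 4287 on the CD14-deficient unstimulated array to 6831 on the 48 h LPS array of the same genotype, and both unstimulated arrays, at 4287 and 4590, were among its 3 lowest.

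The standard catalytic subunits did not share these courses. Psmb5 stayed between 2766 and 3860 on all 10 arrays. Psmb6 read 2307 and Psmb7 read 2805 on the 48 h LPS array of CD14-deficient cells, their lowest values, whereas the other 9 arrays lay between 3423 and 5055 for Psmb6 and between 4755 and 6754 for Psmb7. On that array the median deviation from each gene's mean was 0.41 on the log2 scale for the 3 immune catalytic subunits and −0.73 for the 3 standard ones. At 60 h in the same condition these were −0.08 and 0.07.

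**Figure D2:**
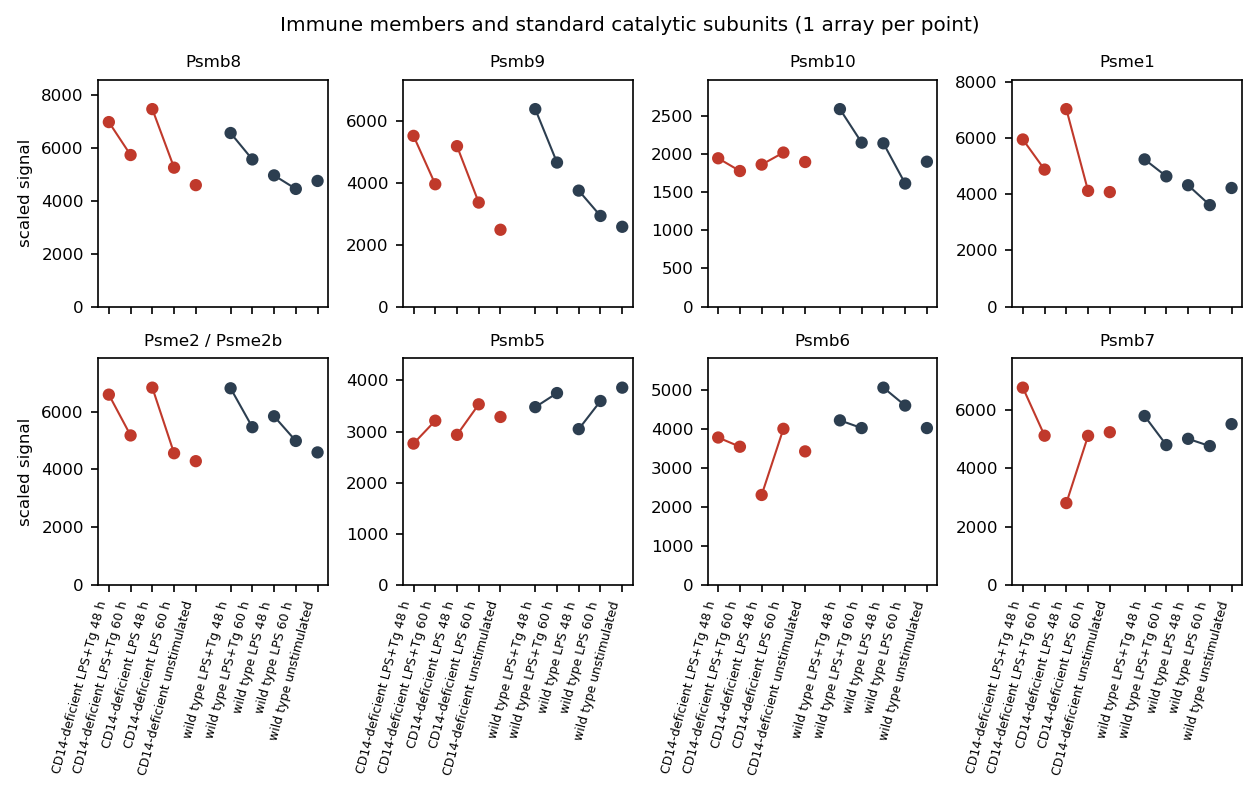
Scaled signal (linear axis from 0) of the immune members Psmb8, Psmb9, Psmb10, Psme1 and the probe set of Psme2 and Psme2b, and of the standard catalytic subunits Psmb5, Psmb6 and Psmb7, with 1 point per array, CD14-deficient in red on the left, wild type in dark blue on the right, and a line joining 48 and 60 h of a condition. Psmb8, Psmb9, Psme1 and Psme2 slope down between 48 and 60 h in all 4 conditions, and Psmb6 and Psmb7 have 1 low array, the CD14-deficient LPS array at 48 h.

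In the rest of the core particle, read from the brightest probe set of each gene, alpha ring genes Psma1 to Psma7, which form the gate of the barrel, had highest to lowest array ratios between 1.18 and 1.67, and the structural beta genes Psmb1 to Psmb4 between 1.33 and 1.77. The other Psmb4 probe set above the filter had a ratio of 3.05 and gave −1.04 ± 0.32 between the genotypes under LPS, where the brightest gave 0.26 ± 0.14. Psma1 lay between 3152 and 3715 on all 10 arrays. Psmb2 had the widest ratio among the structural subunits, and its signal was 1396 and 1411 in CD14-deficient cells with LPS and thapsigargin, 2304 and 1904 with LPS, and 2327 unstimulated. Wild-type cells had 1633 and 1545 with LPS and thapsigargin, 1324 and 1659 with LPS, and 2339 unstimulated. Both unstimulated arrays were thus its highest. No change of Psmb2 passed with all arrays in the fit. Its LPS response in wild-type cells was −0.66 ± 0.23 (adjusted p = 0.11).

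Of the regulatory particle, the 6 ATPases of the base, which unfold substrates, had ratios from 1.38 for Psmc3 to 2.51 for Psmc4. Psmc4 read 1000 and 1760 in CD14-deficient cells with LPS and thapsigargin, 1573 and 943.2 with LPS, and 1742 unstimulated. In wild-type cells it read 864.2 and 1104 with LPS and thapsigargin, 1097 and 1381 with LPS, and 2173 unstimulated. The CD14-deficient pairs at 48 and 60 h thus ran in opposite directions with and without thapsigargin on this probe set. The second Psmc4 probe set lay between 1027 and 1414, a ratio of 1.38, and its LPS response in wild-type cells was −0.05 ± 0.24, against −0.82 ± 0.44. The lid subunit Psmd8 read 2446 on the 48 h LPS array of CD14-deficient cells and between 4604 and 6571 on the other 9.

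Among the other activators, Psme3, the nuclear PA28 gamma, read 605.1 and 589.1 in CD14-deficient cells with LPS and thapsigargin, 281.7 and 409.7 with LPS, and 422.0 unstimulated. Wild-type cells had 695.0 and 628.7 with LPS and thapsigargin, 682.3 and 547.3 with LPS, and 415.1 unstimulated. The lowest value of this probe set was on the 48 h LPS array of CD14-deficient cells. The second Psme3 probe set read 468.1 there, within its range of 362.3 to 475.5, and gave 0.04 ± 0.23 between the genotypes under LPS. Psme4, the activator PA200, had a ratio of 1.61. Ratios of the base assembly chaperones Psmd5, Psmd9 and Psmd10 ran from 1.61 to 2.21, and those of the core chaperones Psmg1 to Psmg4 from 2.10 to 3.70. Psmc3ip was dim, with 212.3 on the CD14-deficient and 181.7 on the wild-type unstimulated array and between 52.18 and 110.8 on the 8 stimulated arrays.

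LPS was compared with no stimulus within each genotype by limma on log2 signals, with Benjamini-Hochberg adjustment across all 7474 genes. With 1 array per condition, the error comes from how far the 48 and 60 h arrays of a condition departed from a shift shared by all conditions, so the p-values say nothing of how cultures or mice vary. In CD14-deficient cells 0 of 47 proteasome genes passed an adjusted p of 0.05, where 4.17% of all genes did, and 5 had an unadjusted p under 0.05, where 22.6% of all genes did. Psmb9 had the smallest adjusted p, with a log2 change of 0.75 ± 0.17 (SE; adjusted p = 0.0704), or 1.68-fold. The log2 change was 0.45 ± 0.17 for Psmb8, 0.40 ± 0.22 for Psme1, 0.03 ± 0.22 for Psmb10 and 0.38 ± 0.17 for the probe set of Psme2 and Psme2b. For the standard counterparts it was −0.03 ± 0.16 for Psmb5, −0.17 ± 0.32 for Psmb6 and −0.47 ± 0.38 for Psmb7. The median change was 0.42 over Psmb8, Psmb9, Psmb10 and Psme1, 0.00 over the 14 standard core subunits, −0.25 over the 17 regulatory particle subunits, and 0.03 over all genes. When the 48 h LPS array of CD14-deficient cells was left out, 4 genes passed (15.9% of all genes). These were Psmb9, at 0.65, and Psmd10, which were higher, and Psmc3ip and Psmc4, which were lower. With either LPS array of this genotype left out, 1 LPS array stands against 1 unstimulated array. The error then comes from the other conditions alone, so such calls say nothing of the spread within this one. Without the 60 h array instead, 10 passed (38.6% of all genes), with Psmb8, Psmb9 and Psme1 among 6 higher and Psmb6 and Psmb7 among 4 lower.

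In wild-type cells 2 of 47 proteasome genes changed with LPS, both lower, where 8.24% of all genes were lower and 7.69% higher (15.9% in all), and 6 had an unadjusted p under 0.05, where 33.5% of all genes did. The immune members gave no such change. Psmb9 differed by 0.36 ± 0.17 (95% interval −0.05 to 0.78), Psmb8 by −0.02 ± 0.17 (−0.44 to 0.41), Psme1 by −0.10 ± 0.22 (−0.64 to 0.45) and Psmb10 by −0.03 ± 0.22 (−0.57 to 0.51). Tap1, whose start region overlaps that of Psmb9, rose in both genotypes, by 1.18 ± 0.18 in CD14-deficient (adjusted p = 0.0297) and by 1.19 ± 0.18 in wild-type cells (adjusted p = 0.0128). Its signal was 1893 and 1562 with LPS against 757 unstimulated in CD14-deficient cells, and 1886 and 1462 against 729 in wild-type cells. The difference of the LPS responses between the genotypes passed for 0 of 47 genes, as for 0% of all genes, and 1 proteasome gene, Psmd6, had an unadjusted p under 0.05, against 8.2% of all genes.

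The 2 genes that fell were Psmd6, a subunit of the lid of the regulatory particle, and Psmg1, a chaperone of alpha ring assembly. Psmd6 read 1373 and 1785 in CD14-deficient cells with LPS and thapsigargin, 2070 and 2738 with LPS, and 3199 unstimulated. In wild-type cells it read 1536 and 1738 with LPS and thapsigargin, 1156 and 1698 with LPS, and 3237 unstimulated. All 8 stimulated arrays were below both unstimulated ones. In wild-type cells it was 0.433-fold with LPS relative to the unstimulated array, a log2 change of −1.21 ± 0.20 (adjusted p = 0.015). In CD14-deficient cells the change was −0.43 ± 0.20 (adjusted p = 0.264). LPS and the longer time in culture cannot be told apart here. The second Psmd6 probe set gave −1.22 ± 0.25 in wild-type and −0.83 ± 0.25 in CD14-deficient cells.

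Psmg1 read 319.4 and 379.1 in CD14-deficient cells with LPS and thapsigargin, 383.5 and 641.4 with LPS, and 848.4 unstimulated. Wild-type cells gave 340.5 and 394.1 with LPS and thapsigargin, 229.5 and 455.3 with LPS, and 798.5 unstimulated. Again every stimulated array was below both unstimulated ones. The LPS response was −1.30 ± 0.31 in wild-type cells (adjusted p = 0.0442) and −0.77 ± 0.31 in CD14-deficient cells (adjusted p = 0.22). The Psmd6 call was lost on leaving out any 1 of 6 stimulated arrays (adjusted p 0.0547 to 0.0804), as was that of Psmg1 (0.0703 to 0.154). That of Psmg1 was also lost with no filter on dim signals, with the strict filter and with no time term. The 6 stimulated arrays exclude the CD14-deficient LPS arrays, which are not part of this comparison. Leaving out either of those takes that pair out of the error, so calls of those fits are not given here. Of 8 cell division markers 7 were on the array, and they summed to 1912 and 1840 with LPS against 10906 unstimulated in CD14-deficient cells, and to 788 and 755 against 8623 in wild-type cells. The 12 macrophage markers on the array, of which Cd163 was under the floor throughout, summed to 10693 and 32571 against 48247 in CD14-deficient cells, and to 36867 and 29294 against 43207 in wild-type cells. Their part in these falls was not tested.

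With LPS in CD14-deficient cells Psmc3ip gave −1.37 ± 0.50 (adjusted p = 0.184) and the core chaperone Psmg2 −0.84 ± 0.31 (adjusted p = 0.186). By size alone, Psmc3ip, Psmc4, Psmd6 and Psmg1 were lower by over 1.5-fold at both times in wild-type LPS cells (18.4% of all genes), and Psmc3ip and Psmg2 in CD14-deficient LPS cells (9.89%). None was higher by that much at both times, where 16.3% of all genes were in wild-type and 10.0% in CD14-deficient cells. Both times share 1 unstimulated array. Psmc3ip was above the filter's cut only unstimulated (212.3 CD14-deficient, 181.7 wild type) and on the 48 h LPS array of CD14-deficient cells (110.8). It thus passed the filter only with the help of unstimulated arrays, where it was highest. Its p-values, calls and fold counts for LPS are therefore not independent of its entry to the test. The ubiquitin receptor Psmd4 was the next gene by adjusted p in wild-type cells, at 0.72 ± 0.20 (adjusted p = 0.0628).

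Between CD14-deficient and wild-type cells under LPS 0 of 47 proteasome genes passed, where 5.18% of all genes did, and 10 had an unadjusted p under 0.05, where 27.4% of all genes did. Values of the immune members were on the positive side without passing, at 0.41 ± 0.14 for Psmb8 (adjusted p = 0.129), 0.33 ± 0.14 for Psmb9, 0.45 ± 0.18 for Psme1, 0.06 ± 0.18 for Psmb10 and 0.05 ± 0.14 for the probe set of Psme2 and Psme2b. The standard catalytic subunits gave −0.04 ± 0.13 for Psmb5, −0.67 ± 0.26 for Psmb6 and −0.37 ± 0.31 for Psmb7. Psme3, on the brighter of its probe sets, gave −0.85 ± 0.25 (adjusted p = 0.1) and the lid subunit Psmd3 −0.57 ± 0.16 (adjusted p = 0.0908). On the brightest probe sets all 6 ATPases had negative values, between −0.51 and −0.02. So had 14 of the 17 regulatory particle subunits, whose median was −0.29 against 0.08 over all genes. Other probe sets above the filter reversed the sign for Psmc6 (0.85 ± 0.32) and Psmd13 (0.16 ± 0.18). For Psmd4 they gave −0.72 ± 0.43 and 0.68 ± 0.55, and for Psmd6 −0.04 ± 0.20. Those of Psmc2, Psmc4, Psmd7 and Psmd11 kept the negative sign. The median over the 14 standard core subunits was 0.03. At 48 h the log2 difference was 0.59 for Psmb8, 0.70 for Psme1, −1.13 for Psmb6 and −0.83 for Psmb7, and at 60 h it was 0.24, 0.19, −0.20 and 0.10 in the same order. With either CD14-deficient LPS array left out, 1 array stood for that condition, so calls of those fits are not given here.

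Psmd6 and Psma8 had the smallest adjusted p between the genotypes. Psmd6 differed by 0.76 ± 0.16 (adjusted p = 0.0545), with log2 differences of 0.84 at 48 h and 0.69 at 60 h. Its second probe set gave −0.04 ± 0.20, so the probe sets disagree on this difference. Psma8, known as the testis form of an alpha ring subunit, was dim. It read 82.73 and 112.4 in CD14-deficient cells with LPS and thapsigargin, 124.5 and 134.4 with LPS, and 156.6 unstimulated. The wild-type arrays read 43.09 and 48.30 with LPS and thapsigargin, 55.28 and 59.28 with LPS, and 78.66 unstimulated. All 5 CD14-deficient values were above all 5 wild-type values. The filter on dim signals has its cut at 99.2, and no wild-type array reached it for Psma8. Psma8 thus passed the filter through CD14-deficient arrays alone. Its p-values, calls and fold counts between the genotypes are therefore not independent of its entry to the test.

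The difference for Psma8 was 1.18 ± 0.25 under LPS (adjusted p = 0.0578), 1.08 ± 0.25 under LPS with thapsigargin (adjusted p = 0.692) and 0.99 on the unstimulated arrays, where there is no test. It was the sole proteasome gene over 1.5-fold higher in the genotype comparison unstimulated (3.21% of all genes) and with LPS and thapsigargin at both times (1.7%), and 1 of 2 with LPS (8.23%), beside Psmd6. None was over 1.5-fold lower at both times under LPS (5.46%) or LPS with thapsigargin (2.15%). With no intensity trend in the test it was the 1 proteasome gene that passed under LPS. No proteasome gene was over 1.5-fold lower in CD14-deficient cells unstimulated, where 2.44% of all genes were.

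LPS with thapsigargin was then compared with LPS alone. In CD14-deficient cells 1 of 47 genes passed, Psmd11, where 3.43% of all genes rose and 6.62% changed either way. Psmd11, a lid subunit known to promote proteasome assembly, read 5421 and 4929 with LPS and thapsigargin and 3393 and 3217 with LPS in CD14-deficient cells, and 2986 unstimulated. In wild-type cells it read 4972 and 4702 with LPS and thapsigargin, 4318 and 3763 with LPS, and 3007 unstimulated. In both genotypes the arrays with thapsigargin lay above those with LPS alone. The log2 change was 0.65 ± 0.13 in CD14-deficient cells (adjusted p = 0.0429), 1.56-fold, and 0.26 ± 0.13 in wild-type cells (adjusted p = 0.539). Of its 3 other probe sets above the filter, none passed, at 0.86 ± 0.21, 0.41 ± 0.18 and 0.19 ± 0.18 in CD14-deficient cells. Leaving out any 1 of 6 stimulated arrays, those other than the CD14-deficient LPS arrays, ended the call (adjusted p 0.084 to 0.385), as did no scaling, the strict filter and no intensity trend.

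Other regulatory particle subunits lay on the same side without passing. Of the 17, 15 had a positive change with thapsigargin in CD14-deficient cells and the median was 0.40, against 0.01 over the 14 standard core subunits and 0.00 over all genes. The 6 ATPases ran from 0.12 to 0.71. Psmd4 gave 0.69 ± 0.17 (adjusted p = 0.0635), the lid subunit Psmd7 0.81 ± 0.21 (adjusted p = 0.0702) and the ATPase Psmc6 0.71 ± 0.21 (adjusted p = 0.0945). For Psmd4 the other probe sets gave 1.28 ± 0.43 and −0.83 ± 0.55, and for Psmc6 the other one above the filter gave −0.87 ± 0.32. Psmd6 gave −0.60 ± 0.16 (adjusted p = 0.076) and the assembly chaperone Psmg3 0.74 ± 0.19 (adjusted p = 0.0698). Psmd4, Psmd11 and Psmg3 were over 1.5-fold higher at both times (7.96% of all genes) and Psmd6 was over 1.5-fold lower (9.18%).

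On the 48 h LPS array of CD14-deficient cells the 17 regulatory particle subunits deviated by a median of −0.31 from their means, the lowest of the 10 arrays. Without it 9 genes passed (28.8% of all genes), with Psmc4, Psmd4, Psmd7, Psmd11, Psmd12 and Psmg3 higher and Psmd1, Psmd6 and Psmd10 lower. Without the 60 h array 20 passed (38.7% of all genes). The summed macrophage markers were 18580 and 16275 with thapsigargin against 10693 and 32571 with LPS alone, and their part was not tested. The immune members showed little difference here, at 0.16 ± 0.14 for Psmb9, 0.01 ± 0.14 for Psmb8, 0.00 ± 0.18 for Psme1, −0.06 ± 0.18 for Psmb10 and 0.07 ± 0.14 for the probe set of Psme2 and Psme2b. The 95% interval of Psmb8 ran from −0.33 to 0.36.

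**Figure D3:**
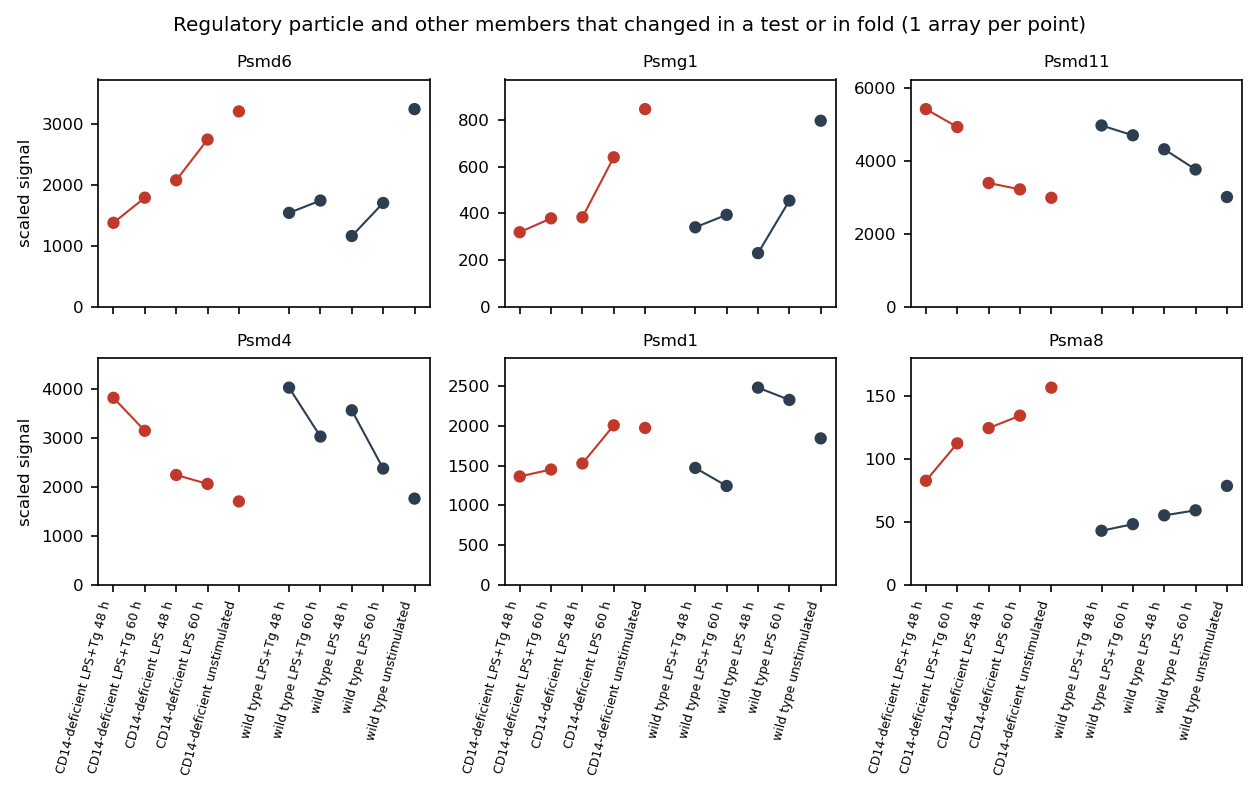
Scaled signal (linear axis from 0) of Psmd6, Psmg1, Psmd11, Psmd4, Psmd1 and Psma8, with 1 point per array, CD14-deficient in red on the left, wild type in dark blue on the right, and a line joining 48 and 60 h of a condition. Psmd6 and Psmg1 are highest unstimulated in both genotypes, Psmd11 is higher with thapsigargin than with LPS alone, and Psma8 is higher on each CD14-deficient array than on any wild-type array.

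In wild-type cells thapsigargin gave 0 of 47 calls, where 0.0535% of all genes passed, and 3 genes had an unadjusted p under 0.05, where 10.3% of all genes did. These were Psmb9, at 0.72 ± 0.14 (adjusted p = 0.18; 1.65-fold), Psmb8, at 0.36 ± 0.14 (adjusted p = 0.468), and Psmd1, the large scaffold subunit of the base, at −0.83 ± 0.20 (adjusted p = 0.286). Psme1 gave 0.32 ± 0.18, Psmb10 0.34 ± 0.18 and the probe set of Psme2 and Psme2b 0.18 ± 0.14, while Psmb5, Psmb6 and Psmb7 gave 0.13 ± 0.13, −0.23 ± 0.26 and 0.11 ± 0.31. The median was 0.35 over Psmb8, Psmb9, Psmb10 and Psme1, 0.04 over the standard core and 0.11 over all genes. Psmb9 was over 1.5-fold higher at both times (4.27% of all genes) and Psmd1 over 1.5-fold lower (3.91%).

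With the 48 h LPS array of CD14-deficient cells left out, the change of Psmb9 was again 0.72, its SE was 0.08, and Psmb8, Psmb9 and Psmd1 passed (7.84% of all genes), with Psmb8 and Psmb9 higher (adjusted p = 0.0459 and 0.0113) and Psmd1 lower. The same 3 genes passed without the 60 h array of that condition (7.95%). The difference of the thapsigargin effects between genotypes was −0.56 ± 0.19 for Psmb9 (adjusted p = 0.321), and passed for 0 of 47 genes, as for 0% of all genes. At an unadjusted p under 0.05 there were 3, Psmb2, Psmb9 and Psmd6, against 13.3% of all genes.

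With LPS and thapsigargin together the genotypes were close. No proteasome gene passed, where 0.0268% of all genes did, and Psma8 alone had an unadjusted p under 0.05, where 4.4% of all genes did. The log2 difference was −0.22 ± 0.14 for Psmb9, 0.07 ± 0.14 for Psmb8, −0.34 ± 0.18 for Psmb10 and 0.13 ± 0.18 for Psme1, and −0.28 ± 0.13 for Psmb5, −0.17 ± 0.26 for Psmb6 and 0.16 ± 0.31 for Psmb7. The 17 regulatory particle subunits ran from −0.18 to 0.44, against −0.64 to 0.76 between the genotypes under LPS alone.

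Between 60 and 48 h over the 4 stimulated conditions 0 of 47 genes passed, as for 0% of all genes, and 7 had an unadjusted p under 0.05, where 9.82% of all genes did. Of these genes 6, Psmb1, Psmb8, Psmb9, Psmd4, Psmd11 and Psme1, were lower at 60 h in all 4 conditions (12.8%, against 7.61% of all genes), and 6 others, Psma8, Psmb5, Psmd5, Psmd6, Psmg1 and Psmg3, were higher in all 4 (12.8%, against 13.6%). The log2 change was −0.48 ± 0.10 for Psmb9 (adjusted p = 0.399), −0.37 ± 0.13 for Psme1 and −0.30 ± 0.10 for Psmb8, and −0.37 ± 0.10 for the probe set of Psme2 and Psme2b. For Psmb5 it was 0.21 ± 0.09, for Psmb6 0.12 ± 0.18 and for Psmb7 0.03 ± 0.22.

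Genes that work beside the proteasome were read from 3 lists. Of all genes tested, 4.17% passed for LPS without CD14 and 15.9% in wild-type cells, 5.18% between the genotypes under LPS and 6.62% for thapsigargin in CD14-deficient cells. Of the calls in these lists, only those of Irf7 and Irf8 outlived leaving out any of the 6 stimulated arrays other than the CD14-deficient LPS arrays, and these in part. Of 11 genes of MHC class I presentation tested, Tap1 rose with LPS in both genotypes as above, and Tapbpl, a peptide editor, rose by 1.44 ± 0.28 in wild-type cells (adjusted p = 0.0242). Erap1, which trims peptides, was lower in CD14-deficient than in wild-type LPS cells, at −1.12 ± 0.20 (adjusted p = 0.0399), with 432 and 327 against 1042 and 636. The list's median LPS response was 0.18 without CD14 and 0.20 with it, against 0.03 and −0.03 over all genes.

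Of 21 tested regulators and ubiquitin genes, 2 rose and 1 fell with LPS in wild-type cells, near the 15.9% of all genes. Psmf1, the proteasome inhibitor PI31, rose by 1.19 ± 0.30 (adjusted p = 0.0497), and Nploc4, a cofactor of the unfolding ATPase Vcp, by 1.06 ± 0.22 (adjusted p = 0.0286). Vcp itself fell by 0.71 ± 0.18 on the log2 scale (adjusted p = 0.0489). None of the 21 passed for the LPS response in CD14-deficient cells. Thapsigargin in CD14-deficient cells raised 2, Ufd1, another Vcp cofactor, by 1.18 ± 0.22 (adjusted p = 0.0383) and Zfand5, a proteasome-binding activator, by 0.67 ± 0.14 (adjusted p = 0.0489). Zfand5 was also lower in CD14-deficient than in wild-type LPS cells, at −0.70 ± 0.14 (adjusted p = 0.0495). With 1 of those 6 arrays left out, the adjusted p was 0.0656 to 0.345 for Ufd1 and 0.0878 to 0.408 for Zfand5 with thapsigargin.

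Of 15 tested interferon regulators, Irf7 and Irf8 rose with LPS in both genotypes. Irf7, a driver of type I interferon genes, rose by 1.66 ± 0.30 in CD14-deficient (adjusted p = 0.0439) and by 3.48 ± 0.30 in wild-type cells (adjusted p = 0.00375), and under LPS it differed between the genotypes by −2.16 ± 0.25 (adjusted p = 0.0173). With thapsigargin it rose in CD14-deficient cells by 2.11 ± 0.25 (adjusted p = 0.016), and the signal was 5705 and 4929 with thapsigargin against 1241 and 1209 with LPS alone. Irf8, a factor of dendritic cell development, rose by 2.74 ± 0.27 in CD14-deficient cells (adjusted p = 0.0118) and by 1.95 ± 0.27 in wild-type cells (adjusted p = 0.0103). Stat2 rose with thapsigargin in CD14-deficient cells, by 1.14 ± 0.24 (adjusted p = 0.0498). Tyk2, a kinase of the interferon receptor, fell with LPS in wild-type cells (−1.24 ± 0.25, adjusted p = 0.0282) and with thapsigargin in CD14-deficient cells (−1.06 ± 0.21, adjusted p = 0.0405), and was higher in CD14-deficient than in wild-type LPS cells (1.54 ± 0.21, adjusted p = 0.0247). With 1 of those 6 arrays left out, the Irf7 call held in wild-type LPS cells in all 6 (adjusted p 0.0175 to 0.0244) and with thapsigargin in CD14-deficient cells in 2 (0.0381 to 0.223), and that of Irf8 in wild-type cells in 4 (0.0402 to 0.0603). The calls of Irf7 and Irf8 for LPS in CD14-deficient cells, of Irf7 between the genotypes, of Stat2 and of Tyk2 held in 0 of the 6. For Tyk2 between the genotypes the adjusted p was 0.0948 to 0.206. Under LPS Irf7 was lower in CD14-deficient than in wild-type cells with all arrays in the fit, where the values of Psmb8, Psmb9 and Psme1 were on the positive side without passing. Irf1, from the same list, read 1909 and 877 with LPS at 48 and 60 h in CD14-deficient cells, and 1041 and 1515 in wild-type cells. How these genes relate to the immune members was not tested.

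Probe sets of a gene did not always agree. In 16 genes with more than 1 probe set above the filter, the changes had opposite signs in 4 to 8 genes, depending on the comparison. The widest gap was 2.11 for Psmd4 with thapsigargin in CD14-deficient cells, among single comparisons, and 1.93 for Psmd7 with LPS in wild-type cells, where its dimmer probe set gave 1.89 ± 0.33 and the brighter −0.04 ± 0.26. With all probe sets tested separately, 4 passed for LPS in wild-type cells, both of Psmd6, that of Psmg1 and the dim one of Psmd7 (14.2% of all probe sets). The dim Psmd7 probe set read 29.98 on the CD14-deficient and 39.37 on the wild-type unstimulated array. It passed the filter through stimulated arrays alone, so its call is not independent of its entry to the test.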

How the data were processed

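RNA of 10 cultures was measured on Affymetrix arrays. The deposited values are MAS5 signal intensities on a linear scale, per the submitters' processing notes, and the MAS5 version is not given in the sources used here. Each array was scaled to a common trimmed mean of 509.1, with 2% trimmed at each end (as deposited, 443.8 to 553.3), values under 13.4 were set to 13.4, the 25th percentile of all values, and log2 was taken. Probe sets above the pooled median of 99.2 on at least 2 arrays were kept. Of 22690 probe sets, 20380 had 1 gene symbol, 691 had several and were left out, and 1619 had none or were among the 64 controls. The brightest probe set stood for each gene, and 7474 of 12393 genes were tested. The number of arrays limits the precision.

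One limma model (version 3.58.1, R 4.3.3) held 6 levels of genotype and treatment and a term for 60 against 48 h, with 3 residual degrees of freedom, an intensity trend in the variance and Benjamini-Hochberg adjustment over 7474 genes, at 0.05. It was tested on simulated data. Genes named in each comparison were the immune and standard catalytic members, those that passed and, where fewer than 3 passed, the 3 with the smallest adjusted p, and from 3 other lists up to 6 genes that passed, while other members named were chosen after their values were seen. Members and lists were chosen with earlier results of these data known. Alternatives changed scaling, floor, filter, trend, time term and probe sets, or left out 1 array. Tables and plots were made with Python 3.11.15, pandas 2.3.3, numpy 2.4.6 and matplotlib 3.10.9. Promoter windows are from RefSeq.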

Additional observations from a re-analysis of the deposited data

How the results depend on the processing

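The calls rest on few arrays. Leaving out 1 stimulated array at a time, the number of proteasome genes that passed ran from 0 to 10 for LPS in CD14-deficient cells, 0 to 13 for LPS in wild-type cells, 0 to 23 between the genotypes under LPS, 0 to 20 for thapsigargin in CD14-deficient and 0 to 3 in wild-type cells, 0 to 8 for the difference of the LPS responses and 0 to 13 for the difference of the thapsigargin effects. The highest of these counts came with a CD14-deficient LPS array left out. The error comes from the 48 and 60 h arrays of each condition, so such a fit drops that pair from the error. In that pair 37.9% of all genes were more than 1.5-fold apart, the most of the 4 conditions. Counts that involve CD14-deficient LPS cells then rest on 1 array of that condition. Whether this accounts for the counts was not tested. LPS in wild-type cells gave 1 call with no filter, with the strict filter and with no time term (Psmd6, not Psmg1), and 4 with all probe sets tested separately. The genotypes under LPS gave 1 call with no intensity trend (Psma8, which passed the filter through CD14-deficient arrays alone). Thapsigargin in CD14-deficient cells gave 0 calls with no scaling, with the strict filter and with no intensity trend. With no scaling the LPS response of Psmb5 in CD14-deficient cells was 0.11, and the thapsigargin changes of Psmb8 and Psme1 there were −0.02 and −0.03. With quantile normalization Psmb5 differed between the genotypes under LPS by 0.02. With 1 array left out, signs turned in these ranges. For LPS in CD14-deficient cells they were −0.16 to 0.23 for Psmb10, −0.07 to 0.01 for Psmb5, −0.62 to 0.28 for Psmb6 and −1.02 to 0.09 for Psmb7. For LPS in wild-type cells they were −0.19 to 0.13 for Psmb10 and −0.11 to 0.08 for Psmb8. Between the genotypes under LPS they were −0.13 to 0.25 for Psmb10 and −0.92 to 0.19 for Psmb7, and with LPS and thapsigargin −0.13 to 0.45 for Psmb7 and 0.00 to 0.26 for Psme1. For thapsigargin in CD14-deficient cells they were −0.25 to 0.13 for Psmb10, −0.18 to 0.71 for Psmb6, −0.13 to 0.15 for Psmb8 and −0.26 to 0.27 for Psme1, and in wild-type cells −0.09 to 0.31 for Psmb7. For the difference of the LPS responses they were −0.13 to 0.26 for Psmb10, −0.88 to 0.01 for Psmb6 and −0.85 to 0.26 for Psmb7, and for that of the thapsigargin effects −0.03 to 1.08 for Psmb7. For 60 against 48 h they were −0.10 to 0.21 for Psmb6 and −0.25 to 0.17 for Psmb7. Arrays of the same harvest time were matched across conditions by the time term, and the labels give no replicate numbers beyond that.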
